A study of Homo sapiens with 36 samples.

Results

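The OAS family was described here by its 4 human genes OAS1, OAS2, OAS3 and OASL, matched by symbol to the Ensembl identifiers of the deposited tables, which list 60648 gene identifiers in each library. All 4 genes were found, and all 4 passed the filter on low counts. The 36 libraries are poly(A) RNA-seq of HCT116, an established colorectal cancer cell line, in 12 groups of 3 libraries. They come from 3 degron lines, the single lines UHRF1-AID and DNMT1-AID with the combined line UHRF1-AID/DNMT1-AID, and from WT, each taken at days 2, 6 and 8. In the degron lines the endogenous protein named carries a mini-AID tag, so that auxin leads to its degradation. Every group, WT included, carries doxycycline-inducible OsTIR1, the plant ligase subunit that auxin directs to the tag. Every group received 2 µg/mL doxycycline with 20 µM auxinole, an OsTIR1 inhibitor, and then 2 µg/mL doxycycline with 500 µM auxin (Dox/Auxin). The study calls the libraries of a group biological replicates, while the labels name no cultures, so the p-values measure the spread between these libraries, and whether a line is a single clone is not stated in the labels.

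UHRF1 brings DNMT1, the maintenance DNA methyltransferase, to newly replicated DNA, and cells that lack either protein lose DNA methylation as they divide. OAS1, OAS2 and OAS3 are cytosolic enzymes that bind double-stranded RNA and make short oligoadenylates from ATP. These oligoadenylates act as second messengers of the antiviral response. OASL belongs to the same family by sequence, but human OASL lacks this enzymatic activity and instead carries a ubiquitin-like region through which it enhances signalling by the RNA sensor RIG-I. All 4 genes are textbook interferon-stimulated genes.

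OAS1 (ENSG00000089127.15), OAS3 (ENSG00000111331.14) and OAS2 (ENSG00000111335.14) lie next to each other on the plus strand of chromosome 12 in GRCh38. OAS1 spans positions 112905856 to 112933219, OAS3 112938051 to 112976460, and OAS2 112978395 to 113011723. The gaps between them are 4832 and 1935 bases. OASL (ENSG00000135114.13) lies 8006040 bases from the end of OAS2, on the minus strand, at positions 121017763 to 121039246. An antisense long non-coding RNA gene (ENSG00000257452.1) runs across the cluster, and its exons share 222 bases, or 1.7% of the merged exons, with OAS1 and 0 bases with the other 3 genes. The strand setting of the counting is not stated, so reads from that stretch cannot be assigned to one of the overlapping pair. This antisense gene had 50.0, 61.1 and 43.6 CPM (TMM-scaled read counts set to a common library size) in UHRF1-AID/DNMT1-AID and 32.1, 30.7 and 36.2 CPM in WT at day 8, and 1.82, 2.99 and 2.92 CPM in WT at day 2.

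The promoters of OAS1 and OAS3, the members that the RefSeq promoter table used here matched, are shown to give the sequence around their start sites. Each sequence is 300 bases of GRCh38.p14 from RefSeq, on the plus strand, from 250 bases before the start site, at chr12:112906712-112907011 for OAS1 and chr12:112938224-112938523 for OAS3. Both windows lie inside the gene spans given above, so these RefSeq start sites are not the first bases of those spans. Capitals mark matches to GAAANNGAAA or AANNGAAA, 2 spellings of the element bound by interferon regulatory factors, searched on both strands, where matches to both may overlap.
OAS1: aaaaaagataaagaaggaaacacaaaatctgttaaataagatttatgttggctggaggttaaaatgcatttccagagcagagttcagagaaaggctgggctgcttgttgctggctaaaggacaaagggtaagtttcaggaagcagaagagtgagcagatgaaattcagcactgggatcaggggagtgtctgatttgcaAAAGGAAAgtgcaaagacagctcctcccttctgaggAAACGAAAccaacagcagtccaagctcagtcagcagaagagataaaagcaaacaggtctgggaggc
OAS3: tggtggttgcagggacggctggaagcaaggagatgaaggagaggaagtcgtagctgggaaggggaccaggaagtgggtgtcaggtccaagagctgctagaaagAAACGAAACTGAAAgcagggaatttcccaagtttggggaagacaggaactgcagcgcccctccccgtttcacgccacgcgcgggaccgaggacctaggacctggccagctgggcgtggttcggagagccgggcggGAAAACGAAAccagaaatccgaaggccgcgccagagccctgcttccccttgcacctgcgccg
Counted from the start site, the OAS3 window holds GAAANNGAAA at -143 to -134 and at -12 to -3, while the OAS1 window holds none. The shorter AANNGAAA stands at -52 to -45 and at -16 to -9 in OAS1, and at -147 to -140, -141 to -134 and -10 to -3 in OAS3, where it overlaps the longer spelling. Of 35116 RefSeq promoters of the same length, 3.57% hold GAAANNGAAA and 22.8% hold AANNGAAA on either strand. The OAS1 window has 1 CpG and the OAS3 window 20, with fewer CpG found in 3.96% and 58.8% of all promoters. The matches are a description of the letters only.

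Library totals ranged between 21074536 and 37175136 counts, with a median of 25031562.5. At day 8 mitochondrial transcripts took 7.72 to 10.84% of counts in UHRF1-AID/DNMT1-AID, against 2.87 to 3.73% in WT. The range was 4.68 to 7.41% for UHRF1-AID libraries and 4.79 to 7.93% for DNMT1-AID libraries of that day. Epithelial markers summed to at least 3390 CPM in every library. The 6 leukocyte markers summed to 4.69 to 5.96 CPM in UHRF1-AID/DNMT1-AID and 0.0675 to 0.45 CPM in WT at day 8. Of these 6, all 4 that could be tested rose in that comparison, beside 35.7% of all genes called up. The 6 summed to at most 0.79 CPM in any WT library. The 4 could thus pass the filter through the groups where they were high, and their count is no independent result. PTPRC, the pan-leukocyte marker, reached at most 0.881 CPM and was at 0 in 14 of the 36 libraries. The 5 fibroblast markers, mostly COL1A1, summed to 35.7 to 39.6 CPM in WT at day 6 and 19.5 to 23.6 CPM at day 8, against 6.27 to 8.22 CPM at day 2. Both that could be tested rose over day 2 in WT at days 6 and 8, beside 35.7% and 30.1% of all genes called up. The same limit holds for PDGFRB, which reached at most 2 CPM. At day 8 the fibroblast markers summed to 33.9 to 45.8 CPM in UHRF1-AID/DNMT1-AID, and the 3 endothelial markers summed to at most 3.78 CPM in any library. The part that these shifts play in the results was not tested. Degradation acts on the protein, so mRNA does not check it. DNMT1 mRNA was nonetheless at 44.1 ± 10.6 CPM in UHRF1-AID/DNMT1-AID and 64.0 ± 5.59 CPM in DNMT1-AID, against 199 ± 10.1 CPM in WT at day 8 (SD, n = 3 each). UHRF1 mRNA was at 60.7 ± 19.0 CPM in UHRF1-AID/DNMT1-AID and 119 ± 27.6 CPM in UHRF1-AID, against 149 ± 1.83 CPM in WT at day 8 (SD, n = 3 each). In bulk RNA, fewer cells that express a gene and less RNA per cell cannot be told apart.

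Between day 2 and days 6 and 8, transcripts of all 4 genes rose in WT, which has no degron tag. OAS1 had 116, 118 and 113 CPM in WT at day 6 and 114, 107 and 118 CPM at day 8, against 7.70, 9.32 and 11 CPM at day 2. OAS3 had 726, 709 and 726 CPM at day 6 and 515, 614 and 548 CPM at day 8, against 63.1, 63.1 and 69.4 CPM at day 2. For both genes every later library lay far above every day 2 library. OASL had 68.3, 74.9 and 66.7 CPM at day 6 and 61.7, 61.4 and 63.9 CPM at day 8, against 17.3, 23.3 and 21.1 CPM at day 2. OAS2 stayed low in WT, with 1.49, 1.75 and 1.10 CPM at day 6 and 1.01, 1.17 and 1.32 CPM at day 8, against 0.052, 0.277 and 0.162 CPM at day 2. The day 2 values of OAS2 rest on 1, 5 and 3 reads. Its summed counts were 111 at day 6 and 9 at day 2, a depth-scaled ratio of 8.82 with an exact 95% interval of 4.48 to 19.8 that covers counting error only.

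At day 6 over day 2 in WT the log2 fold change was 3.63 ± 0.36 (SE, as for all log2 fold changes) for OAS1, 3.47 ± 0.20 for OAS3, 3.11 ± 0.87 for OAS2 and 1.77 ± 0.23 for OASL. All 4 passed the threshold, as did 35.7% of the 15415 tested genes in the upward direction, with adjusted p-values of 1.92e-09, 1.6e-14, 0.00254 and 1.52e-07 in that order (edgeR quasi-likelihood test, Benjamini-Hochberg). Their median was 3.29, against 0.07 over all tested genes. At day 8 over day 2 all 4 were called up again, beside 30.1% of all genes, with a median of 2.96 against 0.00. Between day 8 and day 6 none of the 4 was called in WT by edgeR's quasi-likelihood test, beside 34.5% of all genes in either direction, none had an unadjusted p under 0.05, and DESeq2 called none. Scaling by library size alone shifted the median of all genes at day 6 over day 2 to 0.36 and kept the 4 calls. Each of the 4 calls at both days also held with any 1 of the 6 libraries left out. The size of the OAS3 change depended on the processing. Over all alternatives it ranged from 2.54 to 3.76 at day 6 and from 2.46 to 3.27 at day 8 over day 2. Leaving out 1 library gave 3.44 to 3.51 and 3.03 to 3.16. The TMM scaling factors were 0.9084 to 0.9644 in WT at day 2 and 1.1373 to 1.1496 at day 6. In WT the day is also the time on Dox/Auxin, so time in culture, treatment and any handling by day cannot be told apart.

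**Figure D1:**
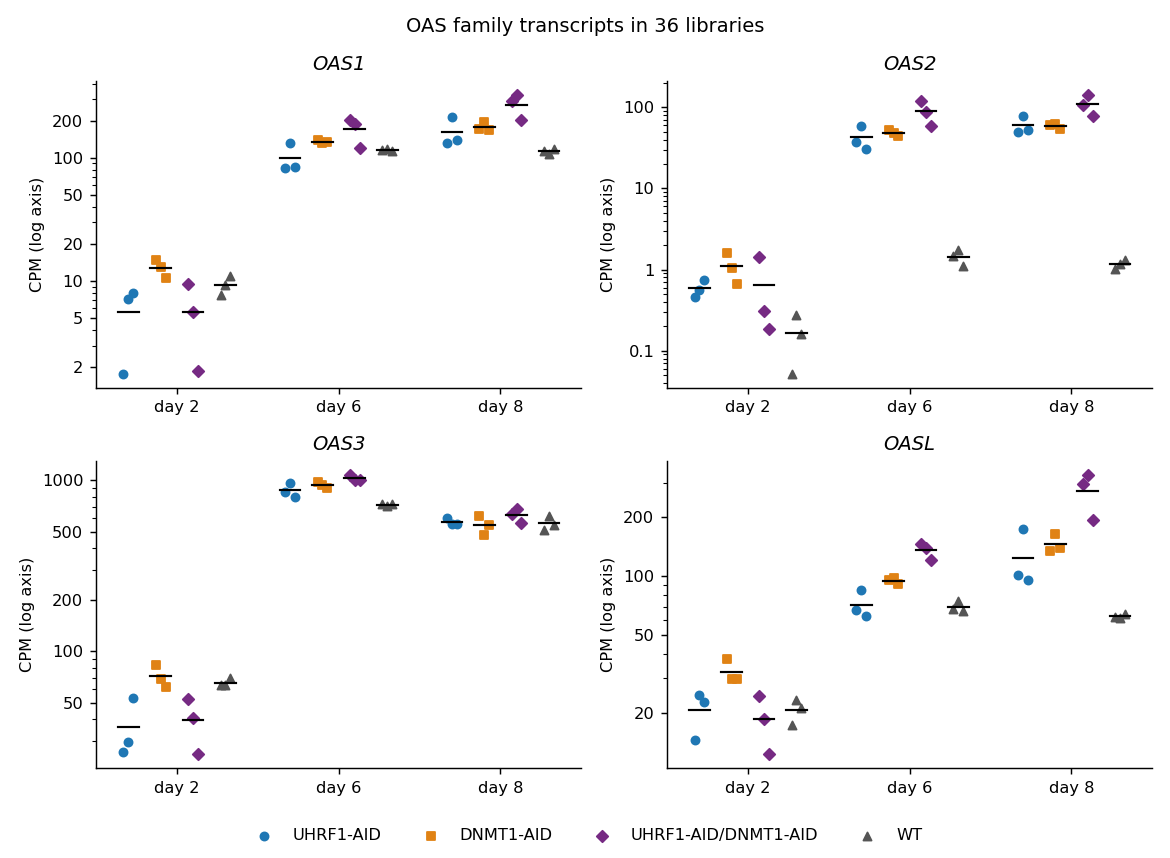
CPM of the 4 OAS family genes in each of the 36 libraries (points, log axes that differ between panels), by line and day, with a bar at the mean of 3 libraries. OAS1, OAS3 and OASL are higher at days 6 and 8 than at day 2 in all 4 lines, whereas OAS2 exceeds 30 CPM at days 6 and 8 in every degron library and stays between 1.01 and 1.75 CPM in WT.

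At day 2 the degron lines held no more OAS1, OAS3 or OASL than WT by the test, and OAS3 was lower in both lines with tagged UHRF1. OAS3, the family member with the longest transcript, had 25.6, 29.6 and 53.3 CPM in UHRF1-AID and 52.3, 40.5 and 25 CPM in UHRF1-AID/DNMT1-AID, against 63.1, 63.1 and 69.4 CPM in WT. All 6 of these degron libraries lay below the 3 WT libraries. The log2 fold change was -0.85 ± 0.19 in UHRF1-AID (adjusted p = 0.00157, edgeR quasi-likelihood test, Benjamini-Hochberg) and -0.73 ± 0.20 in UHRF1-AID/DNMT1-AID (adjusted p = 0.00628, edgeR quasi-likelihood test, Benjamini-Hochberg). This was 1 of 4 members called in each line, where 14.4% and 11.5% of all genes were called down. Without replicate 3 of UHRF1-AID/DNMT1-AID the value in that line was -0.49 with an adjusted p of 0.0571 (edgeR), and in fits of only the groups compared the edgeR adjusted p was 0.0967 in UHRF1-AID and 0.114 in UHRF1-AID/DNMT1-AID. None of the 4 was called in DNMT1-AID by edgeR's quasi-likelihood test, where 3.38% of all genes were called in either direction, although 2 had an unadjusted p under 0.05 and DESeq2 called 1, OAS2. DNMT1 mRNA followed the replicate order of OAS3 at day 2 in both lines with tagged UHRF1. It had 23.4, 26.4 and 45.7 CPM in UHRF1-AID and 19.2, 14.4 and 9.12 CPM in UHRF1-AID/DNMT1-AID. UHRF1 mRNA followed that order in UHRF1-AID but ran opposite to OAS3 in UHRF1-AID/DNMT1-AID. The part that such shared orders play in the OAS3 difference was not tested.

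OAS1 at day 2 showed libraries that stood apart. It had 1.77, 7.12 and 8.06 CPM in UHRF1-AID and 9.52, 5.60 and 1.86 CPM in UHRF1-AID/DNMT1-AID, against 7.70, 9.32 and 11 CPM in WT. The groups overlapped and OAS1 was not called in either line, but without replicate 1 of UHRF1-AID/DNMT1-AID its log2 fold change in that line was -1.32 with an adjusted p of 0.0467 (edgeR). In DNMT1-AID it had 14.7, 13.1 and 10.6 CPM, which overlaps WT. OASL had 37.6, 29.8 and 29.8 CPM in DNMT1-AID, above the 17.3, 23.3 and 21.1 CPM of WT without overlap, at a log2 fold change of 0.66 ± 0.24 that did not pass the threshold (adjusted p = 0.122, edgeR quasi-likelihood test, Benjamini-Hochberg). OAS2 had few reads in any line at day 2. Its counts summed to 57 in DNMT1-AID, 42 in UHRF1-AID and 33 in UHRF1-AID/DNMT1-AID, against 9 in WT. The depth-scaled ratios to WT were 6.91 (95% interval 3.39 to 15.9), 3.69 (1.77 to 8.63) and 4.11 (1.92 to 9.76) in that order, intervals that cover counting error only, and none was called by edgeR at the spread between libraries. DESeq2 called OAS2 up in all 3 lines, with adjusted p-values of 0.000928, 0.0168 and 0.00899 in the same order.

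At day 2 OAS3 and OASL were lower in both lines with tagged UHRF1 than in DNMT1-AID, while OAS2 was called in neither comparison. In UHRF1-AID against DNMT1-AID, 3 of 4 members were called down, beside 12.7% of all genes, with OAS3 at -0.98 ± 0.19, OAS1 at -1.17 ± 0.39 and OASL at -0.65 ± 0.23. In UHRF1-AID/DNMT1-AID against DNMT1-AID, 2 of 4 were called down, beside 4.72% of all genes, with OAS3 at -0.86 ± 0.20 and OASL at -0.81 ± 0.24. OAS1 in that comparison was at -1.16 ± 0.41 with an adjusted p of 0.0704 (edgeR quasi-likelihood test, Benjamini-Hochberg). OAS2 was at -0.90 ± 0.69 in UHRF1-AID and -0.75 ± 0.73 in UHRF1-AID/DNMT1-AID over DNMT1-AID. In UHRF1-AID against DNMT1-AID the OAS1 call was lost without replicate 1 of UHRF1-AID (-0.75) or without replicate 1 (-1.05) or 2 (-1.15) of DNMT1-AID, and the OASL call was lost without any 1 of the 6 libraries except replicate 2 of UHRF1-AID, at values between -0.72 and -0.46. In UHRF1-AID/DNMT1-AID against DNMT1-AID the OASL call was lost without replicate 2 (-0.81) or 3 (-0.59) of UHRF1-AID/DNMT1-AID or replicate 1 (-0.69) or 2 (-0.87) of DNMT1-AID. The OAS3 calls held without any 1 library, but in fits of only the groups compared none of the 4 members was called in either comparison, with edgeR adjusted p-values of 0.121 and 0.186 for OAS3. UHRF1-AID/DNMT1-AID against UHRF1-AID gave no call among the 4 by edgeR's quasi-likelihood test, beside 17.7% of all genes, with none at an unadjusted p under 0.05 and none by DESeq2.

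By day 6 OAS2 set the degron lines apart from WT. It had 37.8, 59.6 and 31.0 CPM in UHRF1-AID, 52.6, 48.6 and 44 CPM in DNMT1-AID, and 120, 87.9 and 59.6 CPM in UHRF1-AID/DNMT1-AID, against 1.49, 1.75 and 1.10 CPM in WT. The lowest degron library was thus far above the highest WT library. The log2 fold change over WT was 4.90 ± 0.35, 5.08 ± 0.35 and 5.96 ± 0.36 in the 3 lines in that order (adjusted p = 5.27e-11, 6.12e-11 and 4.99e-13, edgeR quasi-likelihood test, Benjamini-Hochberg). As depth-scaled ratios of summed counts these were 30.1 (95% counting interval 24.9 to 36.7), 34.3 (28.4 to 41.8) and 64.5 (53.4 to 78.5). OAS2 was the only member called at day 6 in UHRF1-AID and in DNMT1-AID, where 14.3% and 8.84% of all genes were called up.

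In UHRF1-AID/DNMT1-AID 3 of 4 members, OAS2, OAS3 and OASL, were called up at day 6 beside 19% of all genes. OASL had 147, 140 and 121 CPM in UHRF1-AID/DNMT1-AID against 68.3, 74.9 and 66.7 CPM in WT, a log2 fold change of 0.96 ± 0.22 (adjusted p = 0.000831, edgeR quasi-likelihood test, Benjamini-Hochberg). OAS3 had 1070, 1010 and 997 CPM in UHRF1-AID/DNMT1-AID against 726, 709 and 726 CPM in WT, a log2 fold change of 0.51 ± 0.18 (adjusted p = 0.0277, edgeR quasi-likelihood test, Benjamini-Hochberg). The groups did not overlap for either gene, but the OAS3 call was lost in 5 of the 6 fits that left out 1 library, at edgeR adjusted p-values up to 0.0743. The exception was the fit without replicate 3 of UHRF1-AID/DNMT1-AID. OAS3 in UHRF1-AID/DNMT1-AID was not called against UHRF1-AID (0.23 ± 0.18) or DNMT1-AID (0.12 ± 0.18) at day 6. OAS1 had 204, 188 and 121 CPM in UHRF1-AID/DNMT1-AID against 116, 118 and 113 CPM in WT and was not called (log2 fold change 0.56 ± 0.31). In DNMT1-AID, OAS1 (139, 132 and 133 CPM), OAS3 (979, 944 and 905 CPM) and OASL (95.6, 97.7 and 91.2 CPM) lay above all WT libraries without overlap. In UHRF1-AID, OAS1 (82.7, 132 and 83.9 CPM) and OASL (67.2, 84.8 and 62.7 CPM) overlapped WT, and OAS3 (852, 961 and 802 CPM) lay above it. The 3 genes of DNMT1-AID passed no threshold in the fit to all 36 libraries, and did in the fit to only the 6 libraries compared, at edgeR adjusted p-values of 0.00217, 4.68e-06 and 8.55e-06. OAS3 in UHRF1-AID did so too, at 0.0378 (edgeR).

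At day 8 OAS2 remained the member with the largest difference from WT, and OASL had joined it in all 3 degron lines. OAS2 had 49.3, 77.5 and 52.7 CPM in UHRF1-AID, 60.6, 62.0 and 53.6 CPM in DNMT1-AID, and 108, 142 and 77.1 CPM in UHRF1-AID/DNMT1-AID, against 1.01, 1.17 and 1.32 CPM in WT. The log2 fold change was 5.66 ± 0.37, 5.64 ± 0.37 and 6.53 ± 0.37 in the 3 lines in that order (adjusted p = 3.24e-12, 5.67e-12 and 3.56e-14, edgeR quasi-likelihood test, Benjamini-Hochberg). As depth-scaled ratios of summed counts these were 50.4 (95% counting interval 40.7 to 63.0), 50.2 (40.6 to 62.8) and 92.0 (74.5 to 115). OAS2 was called at days 6 and 8 in all 3 lines under every alternative run.

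OASL at day 8 had 102, 175 and 95.8 CPM in UHRF1-AID, 134, 165 and 140 CPM in DNMT1-AID, and 296, 329 and 195 CPM in UHRF1-AID/DNMT1-AID, against 61.7, 61.4 and 63.9 CPM in WT. No degron library overlapped WT. Its log2 fold change was 0.99 ± 0.22, 1.23 ± 0.22 and 2.13 ± 0.22 in the 3 lines in that order (adjusted p = 0.00052, 4.69e-05 and 3.58e-09, edgeR quasi-likelihood test, Benjamini-Hochberg). OAS1 had 131, 215 and 140 CPM in UHRF1-AID, 172, 196 and 169 CPM in DNMT1-AID, and 286, 323 and 201 CPM in UHRF1-AID/DNMT1-AID, against 114, 107 and 118 CPM in WT. Each of these degron libraries lay above each WT library, but OAS1 was called in UHRF1-AID/DNMT1-AID, at 1.25 ± 0.31 (adjusted p = 0.000916, edgeR quasi-likelihood test, Benjamini-Hochberg), and not in UHRF1-AID (0.51 ± 0.31) or DNMT1-AID (0.66 ± 0.31). In fits of only the groups compared the edgeR adjusted p for OAS1 was 0.0414 in UHRF1-AID and 5.52e-06 in DNMT1-AID. Set against the single lines directly, OAS1 in UHRF1-AID/DNMT1-AID was higher by 0.74 ± 0.30 than in UHRF1-AID (adjusted p = 0.0515, edgeR quasi-likelihood test, Benjamini-Hochberg) and by 0.59 ± 0.30 than in DNMT1-AID (adjusted p = 0.113, same test), and neither passed the threshold.

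OAS3 did not separate from WT at day 8. It had 600, 553 and 553 CPM in UHRF1-AID, 619, 480 and 544 CPM in DNMT1-AID, and 636, 681 and 561 CPM in UHRF1-AID/DNMT1-AID, against 515, 614 and 548 CPM in WT. The groups overlapped in all 3 comparisons, and the log2 fold change was 0.02 ± 0.18, -0.03 ± 0.18 and 0.16 ± 0.18 in that order. These signs were not stable, since scaling by library size alone gave -0.05 in UHRF1-AID and -0.02 in UHRF1-AID/DNMT1-AID, and a correction for GC content and length gave 0.12 in DNMT1-AID. In total 2 of 4 members were called up at day 8 in either single line and 3 in UHRF1-AID/DNMT1-AID, beside 24.2%, 25.1% and 35.7% of all genes in the 3 lines in that order. The median of the 4 was 0.75, 0.94 and 1.69, against 0.03, 0.02 and 0.03 over all genes. All of these comparisons at one day share the same 3 WT libraries.

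**Figure D2:**
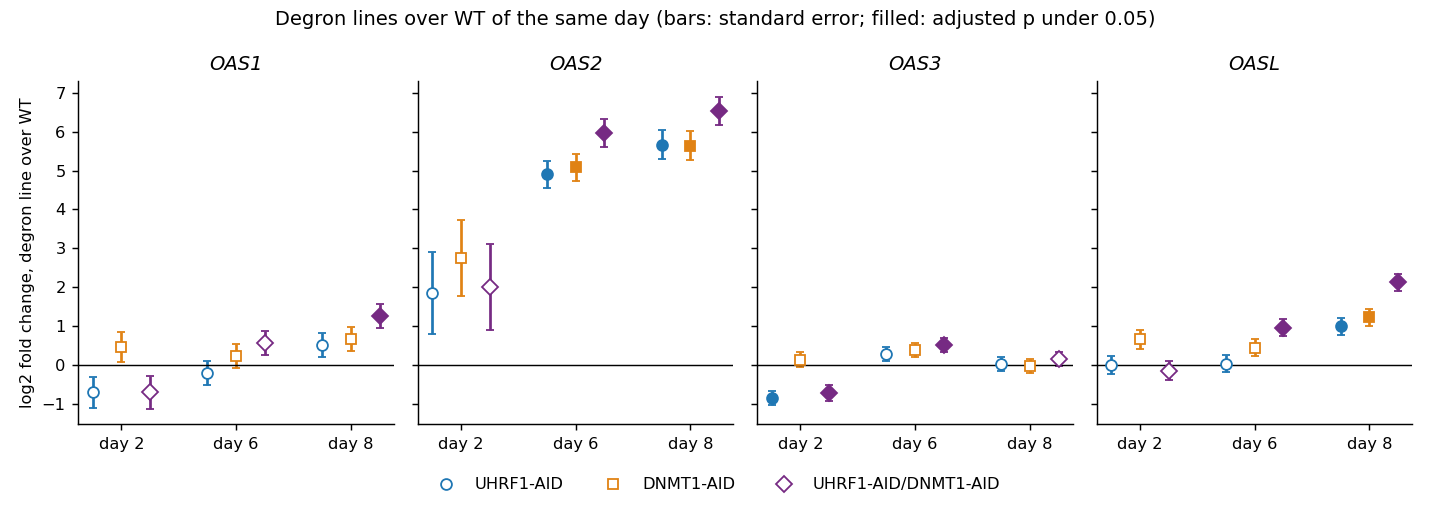
Log2 fold change of each OAS family gene in the 3 degron lines over WT of the same day, with the standard error as bars and filled symbols for adjusted p-values under 0.05 in edgeR's quasi-likelihood test. OAS2 stands between 4.90 and 6.53 at days 6 and 8, OASL reaches 2.13 at day 8 in UHRF1-AID/DNMT1-AID, and OAS3 lies near 0 at day 8.

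The line with both proteins tagged was then compared with each single degron line. At day 6 UHRF1-AID/DNMT1-AID had more OAS2 (1.06 ± 0.25) and OASL (0.93 ± 0.21) than UHRF1-AID, 2 of 4 members beside 5.41% of all genes called up. Against DNMT1-AID it had more OAS2 (0.88 ± 0.25), 1 of 4 beside 10.1%, while OASL was at 0.52 ± 0.21 with an adjusted p of 0.0789 (edgeR quasi-likelihood test, Benjamini-Hochberg). At day 8 OAS2 and OASL were again higher, by 0.87 ± 0.25 and 1.14 ± 0.21 over UHRF1-AID, where 20.4% of all genes were called up. Over DNMT1-AID the differences were 0.89 ± 0.25 and 0.90 ± 0.21, where 22.2% were called up.

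The OASL differences from UHRF1-AID at both days and from DNMT1-AID at day 8 held without any 1 library. The OAS2 differences did not. At day 6 the OAS2 call over UHRF1-AID was lost without replicate 1 of UHRF1-AID/DNMT1-AID (0.79) and without replicate 3 of UHRF1-AID (0.87). Over DNMT1-AID it was lost without replicate 1 of UHRF1-AID/DNMT1-AID (0.61) and without replicate 3 of DNMT1-AID (0.82). Both day 6 calls were also lost in fits of only the groups compared, at edgeR adjusted p-values of 0.203 and 0.0696. At day 8 both calls were lost without replicate 2 of UHRF1-AID/DNMT1-AID, at 0.62 and 0.64. UHRF1-AID and DNMT1-AID did not separate in any of the 4 genes at days 6 and 8 by edgeR's quasi-likelihood test, beside 10.6% and 18.3% of all genes, with none at an unadjusted p under 0.05 and none by DESeq2. At day 8 the difference of OAS2 between them was 0.03 ± 0.25.

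The sum of the log2 effects of both single degrons was larger than the effect in UHRF1-AID/DNMT1-AID for OAS2. The difference was -4.02 ± 0.44 at day 6 and -4.77 ± 0.45 at day 8 (adjusted p = 9.02e-07 and 3.25e-08, edgeR quasi-likelihood test, Benjamini-Hochberg), 1 of 4 members at each day, where 3.58% and 10.4% of all genes were called in that direction. For OAS1, OAS3 and OASL it lay between -0.15 and 0.56 at these days and was not called. At day 2 no member was called by edgeR's quasi-likelihood test, beside 6.59% of all genes in either direction, with 1 at an unadjusted p under 0.05 and 1 called by DESeq2. The OAS2 differences hold on the log2 scale only, over a low WT level. Mean OAS2 in UHRF1-AID, DNMT1-AID, UHRF1-AID/DNMT1-AID and WT was 42.8, 48.4, 89.2 and 1.45 CPM at day 6. The means were 59.8, 58.7, 109 and 1.16 CPM at day 8 in the same order. Additivity on the CPM scale was not tested.

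The change since day 2 was also compared between each degron line and WT. In UHRF1-AID/DNMT1-AID the change exceeded that of WT for OAS3 and OASL by day 6, 2 of 4 members beside 3.28% of all genes, and for all 4 members by day 8, beside 16.1%. In UHRF1-AID it did so for OAS3 by day 6, beside 7.18%, and for OAS3 and OASL by day 8, beside 10.7%. No member differed in DNMT1-AID by edgeR's quasi-likelihood test, where 0.285% and 16.3% of all genes were called in either direction, none had an unadjusted p under 0.05, and DESeq2 called none for day 6 and 1 for day 8, OAS2. OAS3 was the member that started lower than WT at day 2 in both lines with tagged UHRF1 and did not separate from WT at day 8.

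In the order of group means OAS1, OAS2 and OASL were highest in UHRF1-AID/DNMT1-AID at day 8, at 270 ± 62.7, 109 ± 32.5 and 273 ± 70.0 CPM (SD, n = 3), and OAS3 in UHRF1-AID/DNMT1-AID at day 6, at 1030 ± 35.8 CPM. For OAS1 and OASL the next group, DNMT1-AID at day 8 with 179 ± 14.5 and 146 ± 16.6 CPM, did not overlap the first. For OAS2 the next group, UHRF1-AID/DNMT1-AID at day 6 with 89.2 ± 30.2 CPM, overlapped it. The lowest group was UHRF1-AID at day 2 for OAS1 and OAS3, WT at day 2 for OAS2, and UHRF1-AID/DNMT1-AID at day 2 for OASL. The means of OAS3 were higher at day 6 than at day 8 in all 4 lines, and those of OAS1, OAS2 and OASL were higher at day 8 than at day 6 in the 3 degron lines. These orders within a degron line were not tested.

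Levels of the 4 genes were compared per length as RPKM, using the canonical transcript of each gene. OAS2 made up 6.34% of the summed RPKM of the family in UHRF1-AID/DNMT1-AID and 0.145% in WT at day 8. Its share in WT was 0.157% at day 2 and 0.155% at day 6. OAS1 took 44.8%, OAS3 26.3% and OASL 22.6% in UHRF1-AID/DNMT1-AID at day 8, against 40.1%, 48.8% and 11% in WT. The order between genes depends on the length chosen. With the merged length of all annotated exons, the means in UHRF1-AID/DNMT1-AID at day 8 were 43.3 RPKM for OASL, 34.7 for OAS3, 20.7 for OAS1 and 9.70 for OAS2, whereas with the canonical transcript they were 83.6, 94.9, 165 and 23.6 RPKM.

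ABCE1 and PDE12, which are linked to the oligoadenylate pathway, were called lower in all 3 degron lines at day 8. The share of all genes called down is not reported here, so these are values of single genes and no result about the pathway. ABCE1, a ribosome recycling factor, had 33.4 ± 2.48 CPM in UHRF1-AID/DNMT1-AID and 74.6 ± 4.15 CPM in WT at day 8 (SD, n = 3 each). The log2 fold change was -1.16 ± 0.08 (adjusted p = 4.37e-14, edgeR quasi-likelihood test, Benjamini-Hochberg), and ABCE1 was also lower in UHRF1-AID (-0.64 ± 0.08) and DNMT1-AID (-0.50 ± 0.08). PDE12, a phosphodiesterase that breaks down the oligoadenylates made by OAS enzymes, fell by 0.91 on the log2 scale in UHRF1-AID/DNMT1-AID at day 8 (SE 0.08, adjusted p = 1.33e-11, edgeR quasi-likelihood test, Benjamini-Hochberg). AKAP7, which also holds a phosphodiesterase domain of this kind, was not called at day 8 in any degron line. The median over all tested genes was 0.03 in UHRF1-AID/DNMT1-AID over WT at day 8. In WT itself, ABCE1 was lower than at day 2, by -0.77 ± 0.08 at day 6 and -0.55 ± 0.08 at day 8. PDE12 in WT was at -0.32 ± 0.08 at day 6 over day 2 and called, and at -0.11 ± 0.08 at day 8 and not called.

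**Figure D3:**
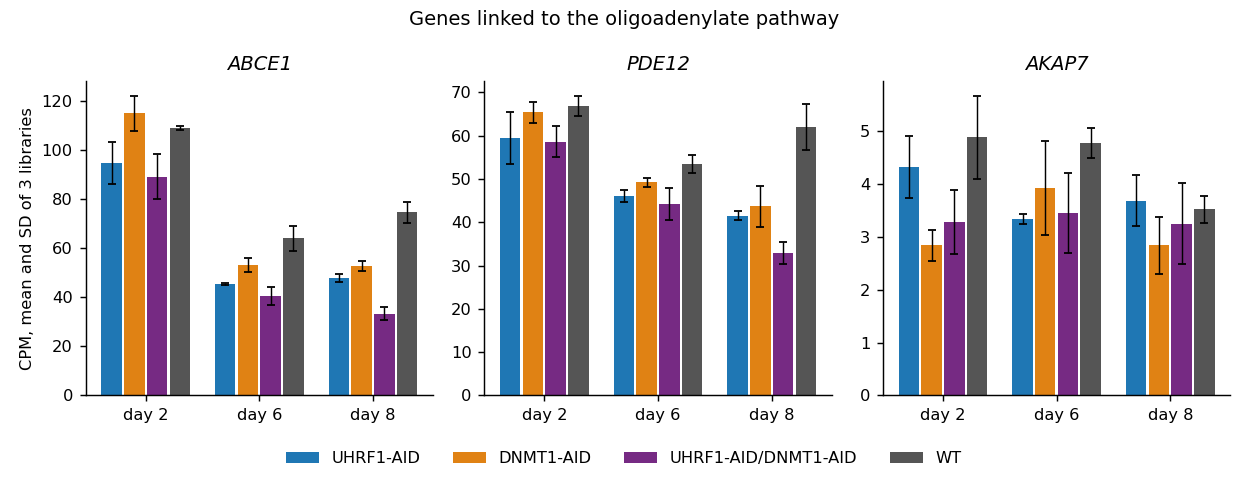
Mean CPM with SD of 3 libraries (bars from 0) for ABCE1, PDE12 and AKAP7, by line and day. ABCE1 and PDE12 are lowest in UHRF1-AID/DNMT1-AID at day 8.

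The OAS genes were set beside 30 other interferon-stimulated genes. At day 6 over day 2 in WT, 29 of these 30 were called up and 0 down, beside 35.7% of all genes called up. Their median was 2.48 against 0.07 over all genes. In UHRF1-AID/DNMT1-AID over WT at day 8, 25 were called up and 2 down, with a median of 1.48 against 0.03. The counts were 23 and 1 in UHRF1-AID and 21 and 1 in DNMT1-AID. Of all genes, 35.7% were called up in UHRF1-AID/DNMT1-AID, 24.2% in UHRF1-AID and 25.1% in DNMT1-AID. The shares called down are not reported here. Ranked with the 30 in UHRF1-AID/DNMT1-AID over WT at day 8, OAS2 was number 2 of 34, OASL 12, OAS1 22 and OAS3 30. Above OAS2 stood MX1, an antiviral GTPase, at 7.43 ± 0.39, with 827 ± 124 CPM in UHRF1-AID/DNMT1-AID and 4.79 ± 0.222 CPM in WT (SD, n = 3 each). XAF1, a pro-apoptotic factor, was at 5.44 ± 0.25, IFITM1, a membrane protein that restricts virus entry, at 4.94 ± 0.23, and BST2, which tethers virus particles to the cell, at 3.26 ± 0.19. In WT over days the ranks differed, with OAS1 number 6, OAS3 number 7, OAS2 number 10 and OASL number 25 at day 6 over day 2. All are descriptions over a list chosen with results of these data known.

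**Figure D4:**
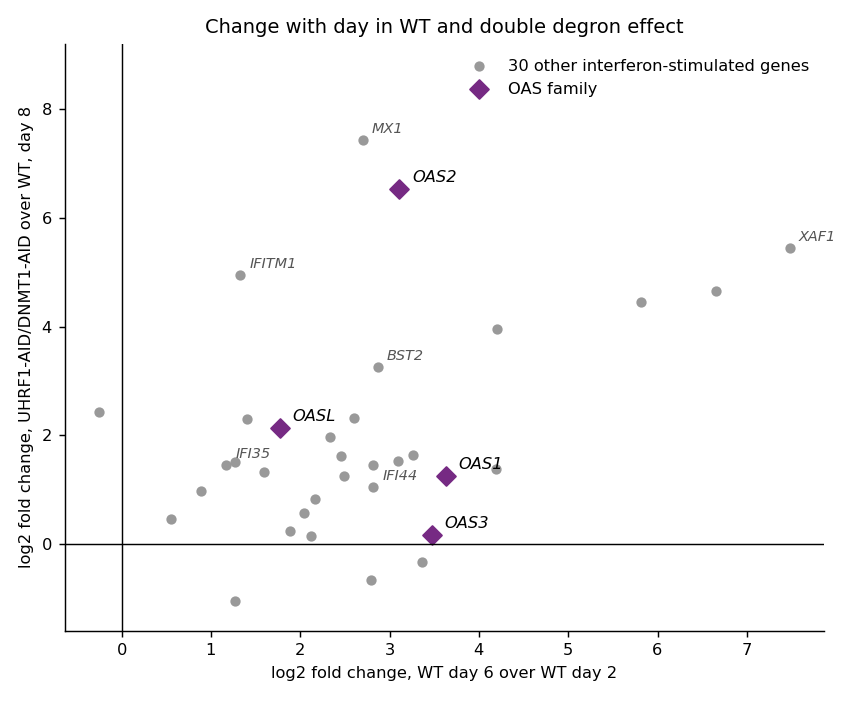
Log2 fold change at day 8 in UHRF1-AID/DNMT1-AID over WT (vertical axis) against that at day 6 over day 2 in WT (horizontal axis) for the 4 OAS family genes (diamonds) and 30 other interferon-stimulated genes (circles). OAS1 and OAS3 lie to the right at 3.63 and 3.47 with vertical values of 1.25 and 0.16, whereas OAS2 lies at 3.11 and 6.53.

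Interferon ligands had few reads in most libraries. Of 8 listed, 4 passed the filter, and none of these exceeded 0.595 CPM in a WT library at day 8. They could pass through the groups where they were high. That all 4 were called up in UHRF1-AID/DNMT1-AID over WT at day 8 is therefore no independent result. Their median was 3.27, against 0.03 over all genes. IFNL1, a type III interferon, had 10.5 ± 4.06 CPM in UHRF1-AID/DNMT1-AID and 0.442 ± 0.185 CPM in WT (SD, n = 3 each), a log2 fold change of 4.59 ± 0.49. IFNB1 reached at most 17 reads and was at 0 in 25 of 36 libraries. Of the 7 transcription factors of the response, 5 were called up in each degron line at day 8 and 0 down, beside 24.2% (UHRF1-AID), 25.1% (DNMT1-AID) and 35.7% (UHRF1-AID/DNMT1-AID) of all genes called up. Among the 8 genes of double-stranded RNA sensing and editing, 4 rose and 2 fell in UHRF1-AID/DNMT1-AID, where DHX58, a RIG-I-like receptor, was at 3.46 ± 0.16 and ADAR, which edits double-stranded RNA, at -0.67 ± 0.10. Of the 9 interferon receptors and kinases 4 rose and 3 fell there, and of the 5 genes of the cGAS and STING route, which senses DNA, 3 rose. These counts stand beside the 35.7% of all genes that were called up in that comparison, while the share called down is not reported here.

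The genes whose mean log2 CPM over the 12 groups was most like each member differed. Likeness was the Pearson correlation among 13499 tested genes with a mean of at least 1 CPM, given as a description, since libraries are shared by all genes. OAS1 was most like IFI44 (r = 0.995), then CRTC2 and GIT1 (0.989 each) and PPP1R37 and BLOC1S3 (0.988 each). OAS3 was most like NLRC5 (0.996), then CAST and UPF1 (0.995 each), GRIPAP1 (0.994) and ZNF707 (0.993). OASL was most like IFI35 (0.994), HSH2D (0.988), ANGPTL6 (0.987), ZBTB42 (0.985) and TRIM69 (0.984). OAS2 was most like an unnamed gene (ENSG00000244255, 0.99), DHX58 (0.989), COL9A2 (0.985), CFB (0.985) and GAL3ST1 (0.981). OAS1 and OAS3 had r = 0.968 with each other, while OAS2 had r = 0.825 with OAS1, 0.789 with its neighbour OAS3 and 0.903 with the distant OASL. Over the 36 libraries OAS3 ranked 42 of 13499 in likeness to OAS1, and OAS1 ranked 327 in likeness to OAS3.

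Of the 6 nearest protein-coding genes beside the OAS1, OAS3 and OAS2 cluster, 3 on each side, 5 were called up and 1 down in UHRF1-AID/DNMT1-AID over WT at day 8, beside 35.7% of all genes called up. With the 3 on each side of OASL included, 6 of 12 neighbours were called up and 4 down. The share of all genes called down is not reported here, so the down counts cannot be set against it. RPH3A, 6975 bases from the cluster, was at 3.96 ± 0.83, with 0.322 to 1.26 CPM in UHRF1-AID/DNMT1-AID and 0.0337 to 0.09 CPM in WT. DTX1, 45007 bases from the cluster, rose by 2.69 ± 0.27, with 5.61 ± 0.775 CPM in UHRF1-AID/DNMT1-AID and 0.866 ± 0.22 CPM in WT (SD, n = 3 each). PTPN11, 395938 bases away on the side of RPH3A, was at -0.93 ± 0.07, with 111 ± 3.86 and 210 ± 2.05 CPM in the same groups (SD, n = 3 each).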

How the data were processed

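The authors trimmed the paired reads with Trim Galore, aligned them with STAR to GRCh38 (hg38) and deposited raw read counts per gene from featureCounts, 1 table for each library, with no normalization. The annotation release, the strand setting and the treatment of reads with several matches are not given in the sources used here. The tables list 60648 identifiers each.

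Counts were used as deposited. Protein-coding genes that passed filterByExpr (minimum count 10) were tested in edgeR 4.0.16 with R 4.3.3, by a robust quasi-likelihood fit to all 36 libraries with TMM scaling and 24 residual degrees of freedom. This left 15415 genes, and p-values were adjusted by Benjamini-Hochberg over all of them within each contrast and called under 0.05. Levels are TMM-scaled CPM, and correlations used log2 CPM with a prior count of 2. RPKM used the canonical transcript length. Intervals of count ratios are exact binomial 95% intervals. The fit was tested on simulated data with known changes. Library totals are between 21074536 and 37175136 counts.

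Groups and days came from the labels. The members and lists were chosen with earlier results of these data known. Genes named with values are the members, genes of the oligoadenylate pathway, up to 4 genes of each other list with the smallest p in UHRF1-AID/DNMT1-AID over WT at day 8, the 5 genes most correlated with each member, the 3 nearest protein-coding genes on each side of both loci, UHRF1 and DNMT1, and the antisense gene, PTPRC and IFNB1, which were added after their values were seen. Some genes that this rule would name are not reported here. Alternatives were DESeq2 1.42.0, other scalings and filters, all gene types, a fit to only the groups compared, a replicate block, a correction for GC content and length (mgcv 1.9.3), leaving out each library, and RPKM with the merged exon length, which was chosen after seeing the data. Promoter sequences came from RefSeq, whose table matched 2 of the 4 genes.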

Additional observations from a re-analysis of the deposited data

Results flagged for a closer look

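The change since day 2 differed between a degron line and WT for 9 results, by a test of the difference itself (edgeR quasi-likelihood test, Benjamini-Hochberg), and each value is the log2 change in the line minus that in WT.

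In UHRF1-AID/DNMT1-AID by day 8, OASL was at 2.28 ± 0.33 (adjusted p = 3.89e-06), OAS1 at 1.96 ± 0.52 (adjusted p = 0.00397) and OAS3 at 0.89 ± 0.27 (adjusted p = 0.00948), and these 3 calls held without any 1 of the 12 libraries. OAS2 was at 4.53 ± 1.70 (adjusted p = 0.0363), a value that rests on 33 reads in UHRF1-AID/DNMT1-AID and 9 in WT at day 2. Its call was lost without WT day 2 replicate 2 (3.94) or 3 (4.52), or without UHRF1-AID/DNMT1-AID day 2 replicate 2 (4.20) or 3 (4.11). It was also lost with the GC and length correction (4.68, adjusted p = 0.0529, edgeR) and in the fit of only the groups compared (4.55, adjusted p = 0.06, edgeR). By day 6, OAS3 was at 1.24 ± 0.27 (adjusted p = 0.00374), a call that held without any 1 library. OASL was at 1.11 ± 0.32 (adjusted p = 0.0299) by day 6, and its call was lost in 8 of 12 fits, with values between 0.90 and 1.12. These were the fits without replicates 2 or 3 of either group at day 2, replicates 1 or 3 of WT at day 6, or replicates 1 or 2 of UHRF1-AID/DNMT1-AID at day 6.

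In UHRF1-AID, OAS3 was at 1.12 ± 0.27 (adjusted p = 0.00568) by day 6, which held without any 1 library, and at 0.87 ± 0.27 (adjusted p = 0.0229) by day 8. The day 8 call was lost without WT day 2 replicate 3 (0.82), WT day 8 replicate 1 (0.81) or UHRF1-AID day 2 replicates 1 (0.67) or 2 (0.75), with the replicate block (0.87), with the block and the GC and length correction (0.72), with scaling by library size only (0.78) and in the fit of only the groups compared (0.86). OASL was at 0.99 ± 0.32 (adjusted p = 0.0318) by day 8, and its call was lost without WT day 2 replicates 2 (0.89) or 3 (0.97), WT day 8 replicates 1 or 2 (0.98 each), UHRF1-AID day 2 replicate 1 (0.80) or UHRF1-AID day 8 replicate 2 (0.67), with scaling by library size only (0.90) and in the fit of only the groups compared (0.98). The cause of these differences was not tested.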

How the results depend on the processing

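OAS2 in all 3 degron lines over WT at days 6 and 8, OASL in all 3 at day 8 and in UHRF1-AID/DNMT1-AID at day 6, OAS1 in UHRF1-AID/DNMT1-AID at day 8, and all 4 members at days 6 and 8 over day 2 in WT were called under every alternative. Values that changed sign were near 0 and not called. OAS3 against WT at day 8 was -0.05 in UHRF1-AID and -0.02 in UHRF1-AID/DNMT1-AID with scaling by library size only, and 0.12 in DNMT1-AID with the GC and length correction, with or without the replicate block. Leaving out 1 library gave OAS3 against WT at day 8 between -0.03 and 0.10 in UHRF1-AID and between -0.13 and 0.06 in DNMT1-AID. It gave OASL against WT between -0.41 and 0.07 in UHRF1-AID/DNMT1-AID at day 2 and between -0.11 and 0.12 in UHRF1-AID at day 6.

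Counts of the 4 members called that moved by over 1.5 times were these, with the count of the reported fit in parentheses, and the cause was not tested. By DESeq2 they were 2 at day 2 in UHRF1-AID and in UHRF1-AID/DNMT1-AID over WT (1 each by edgeR), 1 in DNMT1-AID (0), 2 for the change by day 6 in UHRF1-AID (1), 1 for the change by day 8 in DNMT1-AID (0), and 1 for the difference from the sum of both single degrons at day 2 (0). Smaller moves by DESeq2 were 3 called (2) in UHRF1-AID/DNMT1-AID over DNMT1-AID at day 2, in the change by day 8 in UHRF1-AID and in the change by day 6 in UHRF1-AID/DNMT1-AID. Fitting only the groups compared gave, at day 2, 0 in both lines with tagged UHRF1 (1 each) and 2 in DNMT1-AID (0) over WT, and 0 in UHRF1-AID (3) and UHRF1-AID/DNMT1-AID (2) over DNMT1-AID. At day 6 it gave 2 in UHRF1-AID (1) and 4 in DNMT1-AID (1) over WT, and 1 in UHRF1-AID/DNMT1-AID over UHRF1-AID (2). It gave 2 at day 8 over day 6 in WT (0), and for the change by day 8, 1 in UHRF1-AID (2) and 2 in DNMT1-AID (0). OAS2 in UHRF1-AID and UHRF1-AID/DNMT1-AID over WT at day 2 had too few reads for this fit. Scaling by library size only gave 1 in UHRF1-AID over DNMT1-AID at day 2 (3), as did testing all gene types, 2 in UHRF1-AID/DNMT1-AID over DNMT1-AID at day 6 (1), and 0 for the change by day 8 in UHRF1-AID (2).

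Leaving out 1 library gave 0 to 2 and 2 to 3 called in UHRF1-AID/DNMT1-AID over WT at days 2 and 6. Between lines it gave 1 to 3 in UHRF1-AID over DNMT1-AID at day 2, 0 to 1, 1 to 3 and 1 to 3 in UHRF1-AID/DNMT1-AID over UHRF1-AID at days 2, 6 and 8, and 1 to 3, 0 to 1 and 1 to 2 over DNMT1-AID. For the change since day 2 it gave 0 to 3 in UHRF1-AID by day 8, and 1 to 3 and 3 to 4 in UHRF1-AID/DNMT1-AID by days 6 and 8.

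Same-numbered libraries of a day did not deviate together, with correlations between -0.08 and 0.127 over 54 pairs and 3 pairs over 0.1. The replicate block gave 1 called in DNMT1-AID over WT at day 2 (0), OAS2, and ended 3 calls, OAS3 in UHRF1-AID/DNMT1-AID over WT at day 6 (adjusted p = 0.0551, edgeR), OAS1 in UHRF1-AID over DNMT1-AID at day 2 (0.0572) and OAS3 in the change by day 8 in UHRF1-AID (0.0503). With the GC and length correction it gave 1 for the change by day 8 in UHRF1-AID (2). Depth limits OAS2 at day 2, where a WT library held 1 to 5 reads.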
